A study of Mus musculus with 68 samples.

Results

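The genes described here are 7 transcription factors of neurons and sense organs, Pou4f3, Pou4f2, Foxn4, Nkx2-9, Vax2, En1 and Nkx6-3, out of 55335 gene rows in each of 3 count tables from mouse embryonic stem cells (ESCs). They were taken from a list of Polycomb-target developmental factors and are treated as chosen by their measured RNA levels in MCM2-2A and wild-type lines, since those results were known when the list was made. Their differences between MCM2-2A and wild-type cells and among their clones are therefore given as a description without a p-value. For the POLE4 experiment and the reverted line against wild type p-values are given, though these are not independent evidence.

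In ESCs, promoters of developmental transcription factors often carry the activating mark of Trithorax enzymes and the repressive mark of Polycomb repressive complexes together, a state called bivalent that goes with little or no transcription. Homeobox and forkhead factors of this kind are turned on later, in restricted groups of neurons, where they set cell identity. During DNA replication the parental histones that carry such marks are handed to both daughter strands, and the helicase subunit MCM2 and the polymerase epsilon subunit POLE4 take part in opposite arms of this transfer. Chromatin marks were not measured in the count tables used here.

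All cells were untreated E14JU ESCs of the 129/Ola strain, grown on gelatin in serum with LIF, and rRNA-depleted, strand-specific RNA was sequenced. In the rescue experiment, WT#1 (wild type), MCM2-2A#2 (mutations in the histone-binding domain of MCM2) and MCM2-R#2 (MCM2-2A#2 with the mutations reverted) had 4 cultures each. In the POLE4 experiment, WT#1 and 3 knockout clones (POLE4-KO#1, POLE4-KO#2 and POLE4-KO#3) had 3 libraries each. The clone experiment held 8 MCM2-2A clones and 7 WT clones in 3 batches named January, March and August. Libraries of a clone in a batch were summed, giving 9 MCM2-2A and 8 WT values. WT#1 (March and August) and MCM2-2A#1 (January and March) each gave a value per batch, and these are not independent. January held no WT value, so ranges and overlaps set its MCM2-2A values against WT of other batches. Each line is a single clone, so a value of 1 line cannot be told apart from a property of that clone. The study calls the libraries of a clone biological replicates. The labels do not say whether they came from separate cultures in the POLE4 and clone experiments. Tests on single libraries, as in the POLE4 experiment and among August clones of a genotype, thus measure the spread between these libraries. The main clone comparison measures the spread between clone-and-batch values. The MCM2-R#2 group rests on the study's sample list, since the labels give these 4 libraries a wild-type genotype. Values are CPM, the counts of a gene over the scaled gene total of its library, and the 3 tables were scaled separately, so that levels are compared within a table only.

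Gene counts per library ran from 21882680 to 33779889 in the rescue, from 17500744 to 25659666 in the POLE4 and from 26723456 to 64068260 in the clone experiment. Summed levels of 7 stem cell markers (among them Pou5f1, Nanog and Sox2) ran from 2112 to 3806 CPM over all libraries and none of the 7 was at 0. Pole4 mRNA fell from 59.4 ± 2.77 CPM in WT#1 (SD, n = 3) to 3.21 to 7.30 CPM in the knockout clones. Mcm2 mRNA, which the mutations do not remove, was at 418 ± 20.9 CPM in WT#1, 225 ± 7.91 in MCM2-2A#2 and 212 ± 5.33 in MCM2-R#2 (SD, n = 4), so the reverted line kept the lower Mcm2 level of the line it was made from. The median log2 fold change over all genes tested was within 0.011 of 0 in every comparison between groups. In bulk RNA, fewer cells that transcribe a gene and less RNA of it per cell cannot be told apart.

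Positions are given in mm10. Vax2 is at chr6:83711264-83738313 on the plus strand, where it overlaps its antisense gene Vax2os. En1 is at chr1:120602418-120607992 on the plus strand. Foxn4 is at chr5:114254164-114273807 and Nkx2-9 at chr12:56611389-56613284, both on the minus strand. Pou4f2 (chr8:78433010-78436645, minus strand) and Nkx6-3 (chr8:23153269-23158948, plus strand) share chromosome 8. The stretch before the annotated start was found in the RefSeq promoter table (GRCm38.p6) for 4 of the 7 genes, and it is shown because CpG-rich promoters are the usual seat of bivalent chromatin. Bases run 5′ to 3′ on the gene's strand, capitals mark each CG dinucleotide, and each run ends before the annotated gene body begins.

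Pou4f2: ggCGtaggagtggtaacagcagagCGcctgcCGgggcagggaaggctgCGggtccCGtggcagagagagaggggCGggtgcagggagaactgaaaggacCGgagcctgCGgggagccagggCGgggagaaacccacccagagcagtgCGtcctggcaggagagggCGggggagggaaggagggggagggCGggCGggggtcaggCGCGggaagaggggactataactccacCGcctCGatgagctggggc
Foxn4: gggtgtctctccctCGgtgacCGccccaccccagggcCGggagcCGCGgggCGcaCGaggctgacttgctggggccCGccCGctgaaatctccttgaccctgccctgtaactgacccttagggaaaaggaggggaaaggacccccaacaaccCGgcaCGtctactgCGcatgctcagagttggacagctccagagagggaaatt
Nkx2-9: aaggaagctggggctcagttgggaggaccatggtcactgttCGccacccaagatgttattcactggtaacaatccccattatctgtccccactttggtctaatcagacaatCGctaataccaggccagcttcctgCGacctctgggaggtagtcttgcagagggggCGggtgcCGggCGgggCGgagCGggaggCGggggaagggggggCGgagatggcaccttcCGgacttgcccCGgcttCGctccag
En1: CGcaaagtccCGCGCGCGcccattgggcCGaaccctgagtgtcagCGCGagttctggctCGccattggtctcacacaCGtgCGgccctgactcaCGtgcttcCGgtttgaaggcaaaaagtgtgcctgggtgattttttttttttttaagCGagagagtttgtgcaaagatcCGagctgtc

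These stretches are chr8:78436648-78436897 for Pou4f2, chr5:114273808-114274011 for Foxn4, chr12:56613285-56613534 for Nkx2-9 and chr1:120602237-120602417 for En1. The motif searched was CG, which reads the same on both strands, in the 250 bases before the RefSeq start. For Foxn4 and En1 this window runs into the annotated gene body, so only 204 and 181 of its bases are printed. The counts below cover the whole window and exceed the capitals shown for Foxn4 and En1. Pou4f2 held 17 CG in that window with 70.8% G and C, and 23.5% of the 32841 promoters of the table held as many. Foxn4 also held 17 CG, with 62.8% G and C. En1 held 19, as many as 19.7% of promoters, and Nkx2-9 held 13, as many as 31.5%. All 4 were above the median promoter of the table, which held 6. The CG counts follow from the sequence alone and say nothing of the chromatin state in these cells.

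The first comparison set MCM2-2A#2 against WT#1, where parental histones are shared unequally between the daughter strands in the mutant. Foxn4, Pou4f3, Nkx2-9 and Vax2 were higher in MCM2-2A#2 and Nkx6-3 was lower, while Pou4f2 and En1 did not pass the limits. Calls needed both a log2 fold change beyond 0.58 in either direction and an adjusted p under 0.01 (edgeR quasi-likelihood test with Benjamini-Hochberg adjustment over all genes). By these limits 5 of the 7 genes were called, 4 higher and 1 lower, where 2.76% of the 17098 genes tested were called, 1.80% higher and 0.959% lower. Since these genes were chosen with this comparison known, the count is a description. The call of Vax2 adds no support, since it passed the low-count filter only through the MCM2-2A#2 cultures, where it was high.

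Foxn4, a forkhead factor of retinal progenitors and of spinal interneurons, had 2.77 CPM per kb of exon in WT#1 of the rescue experiment. This was the highest of the 7, with Nkx2-9 at 2.57. Among WT values of the clone experiment Pou4f2 (2.45) and Nkx2-9 (1.51) were above Foxn4 (1.29). In the rescue experiment Foxn4 was at 10.5, 9.58, 7.36 and 9.99 CPM in the 4 WT#1 cultures. It was at 26.6, 24.8, 23.9 and 23.6 CPM in MCM2-2A#2 and at 9.79, 9.16, 8.07 and 13.4 CPM in MCM2-R#2. Every MCM2-2A#2 culture lay above every culture of the other lines, whose ranges overlapped. The fitted log2 fold change of MCM2-2A#2 against WT#1 was 1.42 ± 0.137 (SE).

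Pou4f3, a POU-domain factor of inner ear hair cells that lies at chr18:42394539-42397249 on the plus strand, was at 0.717, 0.835, 0.324 and 0.933 CPM in WT#1, which was 17 to 30 counts. It was at 3.43, 3.23, 1.75 and 2.42 CPM in MCM2-2A#2 and at 1.20, 1.02, 0.731 and 1.46 CPM in MCM2-R#2. The MCM2-2A#2 cultures were all above the others, and the log2 fold change against WT#1 was 2.02 ± 0.308. Culture number 3 was the lowest of each line for Pou4f3 and for Nkx2-9 and the highest of WT#1, MCM2-2A#2 and MCM2-R#2 for Pou4f2. Culture 3 of MCM2-2A#2 was sequenced in the second run alone, culture 3 of WT#1 in both runs and culture 3 of MCM2-R#2 in the first. With the run as a covariate Pou4f3 and Nkx2-9 were still called in MCM2-2A#2 against WT#1.

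Nkx2-9, a homeobox factor of the ventral neural tube next to the floor plate, was at 3.21, 4.83, 1.87 and 3.08 CPM in WT#1. In MCM2-2A#2 it was at 8.38, 8.97, 4.57 and 8.499 CPM, and in MCM2-R#2 at 3.44, 3.92, 2.37 and 5.50 CPM. The ranges of WT#1 and MCM2-2A#2 overlapped through culture 3 of the mutant, and the log2 fold change was 1.27 ± 0.287. Vax2, a homeobox factor of the ventral retina, had the fewest reads, with 3 to 6 counts per culture in WT#1, 11 to 33 in MCM2-2A#2 and 2 to 13 in MCM2-R#2. Its mean level was 0.146 ± 0.0557 CPM in WT#1 and 0.551 ± 0.04 CPM in MCM2-2A#2 (SD, n = 4), with no overlap. The files do not say whether the counting used strand, so reads of Vax2 and Vax2os may not be separate. The calls of Nkx2-9 and Vax2 sat close to the limit: without WT#1 culture 3 their log2 fold changes were 1.04 and 1.70 and neither was called, and with the first run only they were 1.23 and 1.76 and neither was called. Vax2 was also not called with the run as a covariate (1.97) or with the culture number as a block (2.02).

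Nkx6-3, a homeobox factor of the hindbrain and of the stomach, went the other way. It was at 2.49, 1.20, 1.64 and 1.31 CPM in WT#1, at 0.652, 0.408, 0.448 and 0.553 CPM in MCM2-2A#2 and at 0.254, 0.180, 0.548 and 0.487 CPM in MCM2-R#2. Every WT#1 culture was above every culture of both other lines, and MCM2-2A#2 and MCM2-R#2 overlapped. The log2 fold change of MCM2-2A#2 against WT#1 was −1.64 ± 0.299. It was no longer called without MCM2-2A#2 culture 2 (−1.55) or culture 4 (−1.68).

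Pou4f2, a POU-domain factor of retinal ganglion cells, was at 4.18, 3.30, 4.75 and 4.04 CPM in WT#1, at 5.87, 5.08, 9.15 and 6.37 CPM in MCM2-2A#2 and at 4.46, 3.89, 6.28 and 5.36 CPM in MCM2-R#2. All 4 MCM2-2A#2 cultures were above all 4 of WT#1, and the log2 fold change of 0.68 ± 0.187 did not pass the limits. It did pass with DESeq2 (0.69), with no filter on low counts (0.66) and with the culture number as a block (0.68). En1, a homeobox factor of the midbrain-hindbrain boundary and of spinal interneurons, was at 2.33 ± 0.333 CPM in WT#1, 2.40 ± 0.517 in MCM2-2A#2 and 3.05 ± 0.846 in MCM2-R#2 (SD, n = 4). These ranges overlapped, and the log2 fold change of MCM2-2A#2 was 0.02 ± 0.203. Complete separation of the cultures was common: 9.21% of all genes had every MCM2-2A#2 culture above every WT#1 culture and 9.71% had every one below, as Pou4f3, Pou4f2, Foxn4 and Vax2 did above and Nkx6-3 below.

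**Figure D1:**
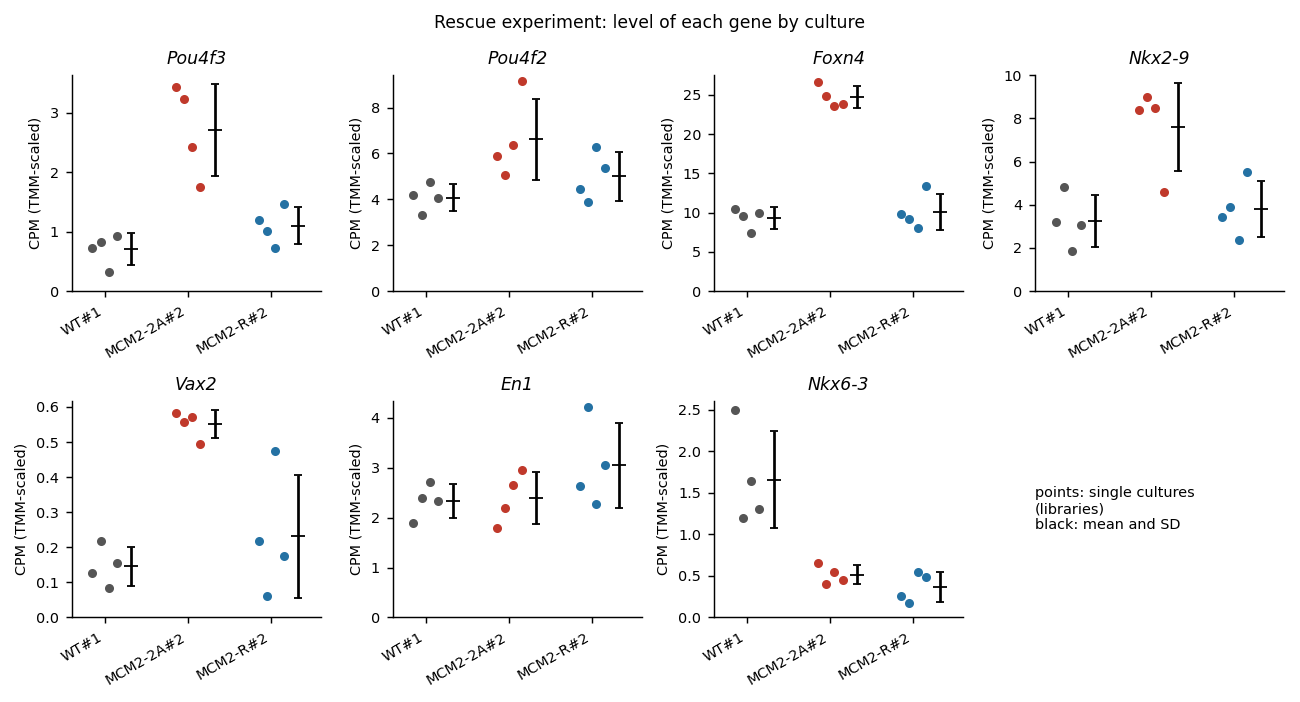
Level of each gene in CPM (vertical axis, from 0) in the 4 cultures of WT#1, MCM2-2A#2 and MCM2-R#2, with points for cultures and the mean and SD in black. The 4 MCM2-2A#2 cultures of Foxn4 sit between 23.6 and 26.6 CPM with all others at or below 13.4, and Nkx6-3 is low in both MCM2-2A#2 and MCM2-R#2.

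MCM2-R#2 against WT#1 asks how far a line with the mutations reverted still differs from wild type. Of the 7 genes, Nkx6-3 fell and the other 6 did not pass the test, where 0.298% of the 17098 genes were called, 0.269% lower (edgeR quasi-likelihood test). This comparison uses the same WT#1 cultures as the first, so the values of both are given side by side and not correlated. Its p-values thus share WT#1 values with the comparison known when the genes were chosen and are not independent evidence. Nkx6-3 had a log2 fold change of −2.17 ± 0.323 (adjusted p = 0.0034), lower in 4 of 4 cultures. Without WT#1 culture 3 it was −2.17 with an adjusted p of 0.011, without MCM2-R#2 culture 1 −2.04 (0.018), and without MCM2-R#2 culture 2 −1.92 (0.015), which ended the call. For Foxn4 the log2 fold change was 0.12 with a 95% interval of −0.153 to 0.399 (adjusted p = 0.79), an interval that lies below its 1.42 in MCM2-2A#2. For Nkx2-9 it was 0.27 with an interval of −0.316 to 0.851 (adjusted p = 0.79). The interval of Pou4f3 was wider and above 0, from 0.0674 to 1.38 around 0.73 (adjusted p = 0.44). Vax2 had 0.70 (−0.282 to 1.68, adjusted p = 0.63), Pou4f2 0.28 (−0.0898 to 0.654, adjusted p = 0.61) and En1 0.38 (−0.017 to 0.769, adjusted p = 0.5).

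Set against MCM2-2A#2 directly, MCM2-R#2 had lower values for 6 of the 7 genes, and Foxn4 alone was called, with a log2 fold change of −1.29 ± 0.137, where 1.37% of genes were called. Pou4f3 had −1.30 ± 0.291, Vax2 −1.29 ± 0.398 and Nkx2-9 −1.005 ± 0.283, none of which passed the limits with edgeR. Pou4f3 and Nkx2-9 did pass with DESeq2, which called 3 of the 7. Nkx6-3 had −0.53 ± 0.37, Pou4f2 −0.40 ± 0.186 and En1 0.35 ± 0.201. Nkx6-3 was thus the gene of the 7 that was called lower than WT#1 in both lines, each time against the same WT#1 cultures.

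The clone experiment extended the MCM2-2A and WT comparison to many clones. Pou4f3, Foxn4 and Nkx2-9 were higher in MCM2-2A clones and were the 3 of 7 called, where 0.679% of 23265 genes tested were called and 0.628% were called higher. The other 4 were not called. Leaving out WT#1 ended all 3 calls, with log2 fold changes of 1.18 for Foxn4, 1.31 for Pou4f3 and 0.80 for Nkx2-9. WT#1 holds the March WT values and is also the wild type of the other experiments. Without it January and March held no WT value, so with batch as a term this contrast rested on the August clones alone. As these genes were chosen with the clone values known, no p-value is given.

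Foxn4 ran from 3.10 to 6.73 CPM in the 8 WT values (median 4.30) and from 7.98 to 17.97 CPM in the 9 MCM2-2A values (median 12.9), so the groups did not overlap. The lowest MCM2-2A clone was MCM2-2A#6 and the highest WT clone was WT#4. Its fitted log2 fold change was 1.26 ± 0.19 (SE) with batch as a term. Pou4f3 ran from 0.208 to 0.672 CPM in WT (median 0.544) and from 0.801 to 2.10 CPM in MCM2-2A (median 1.24), again without overlap, and its log2 fold change was 1.26 ± 0.243. Over all genes tested, 0.675% had every MCM2-2A value above every WT value.

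Nkx2-9 ran from 1.45 to 2.43 CPM in WT (median 1.85) and from 2.14 to 4.57 CPM in MCM2-2A (median 3.68), with 8 of the 9 mutant values above all WT values and MCM2-2A#4 as the exception. Its log2 fold change was 0.78 ± 0.135. Vax2 ran from 0.143 to 0.287 CPM in WT and from 0.214 to 0.921 CPM in MCM2-2A. Again 8 of 9 mutant values were above all WT values, with MCM2-2A#4 as the exception. Its log2 fold change of 0.98 ± 0.26 was not called. It was called with single libraries as units (0.91), a fit that takes libraries of a clone as independent. MCM2-2A#4 thus had the lowest mutant value of both genes. MCM2-2A#2 in January, a batch without WT values, had the highest value of Pou4f3, Foxn4, Nkx2-9 and En1.

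Among August clones without WT#1, which share no clone with the rescue experiment, the same 4 genes had log2 fold changes of 1.30 ± 0.293 (Pou4f3), 1.17 ± 0.235 (Foxn4), 0.79 ± 0.173 (Nkx2-9) and 1.07 ± 0.341 (Vax2). None of the 7 genes was called there by edgeR, 4 had an unadjusted p below 0.05, and DESeq2 called 3, counts that only describe values the genes were chosen with. Only 0.0827% of the 20562 genes tested were called by edgeR in these 11 clones. In the March batch alone, where single libraries were the units and WT#1 was the only WT clone, Foxn4 was the 1 gene called. Pou4f3 and Nkx2-9 had log2 fold changes of 1.32 and 0.72 there. Libraries of a clone are not independent, so this fit measures the spread between libraries.

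Pou4f2, En1 and Nkx6-3 varied among clones of both genotypes. Pou4f2 ran from 5.21 to 18.7 CPM in WT (median 6.25) and from 6.38 to 24.9 CPM in MCM2-2A (median 8.01). En1 ran from 0.267 to 1.98 CPM in WT (median 1.34) and from 0.563 to 2.74 CPM in MCM2-2A (median 1.20). Both genotypes overlapped for all 3 genes, and Nkx6-3 had the widest range of the 7, from 0.165 to 16.5 CPM, a 100-fold span. Its medians were 0.558 CPM in WT and 1.01 CPM in MCM2-2A. The fitted log2 fold changes were 0.54 ± 0.319 for Pou4f2, −0.23 ± 0.321 for En1 and −0.40 ± 0.961 for Nkx6-3, none called.

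**Figure D2:**
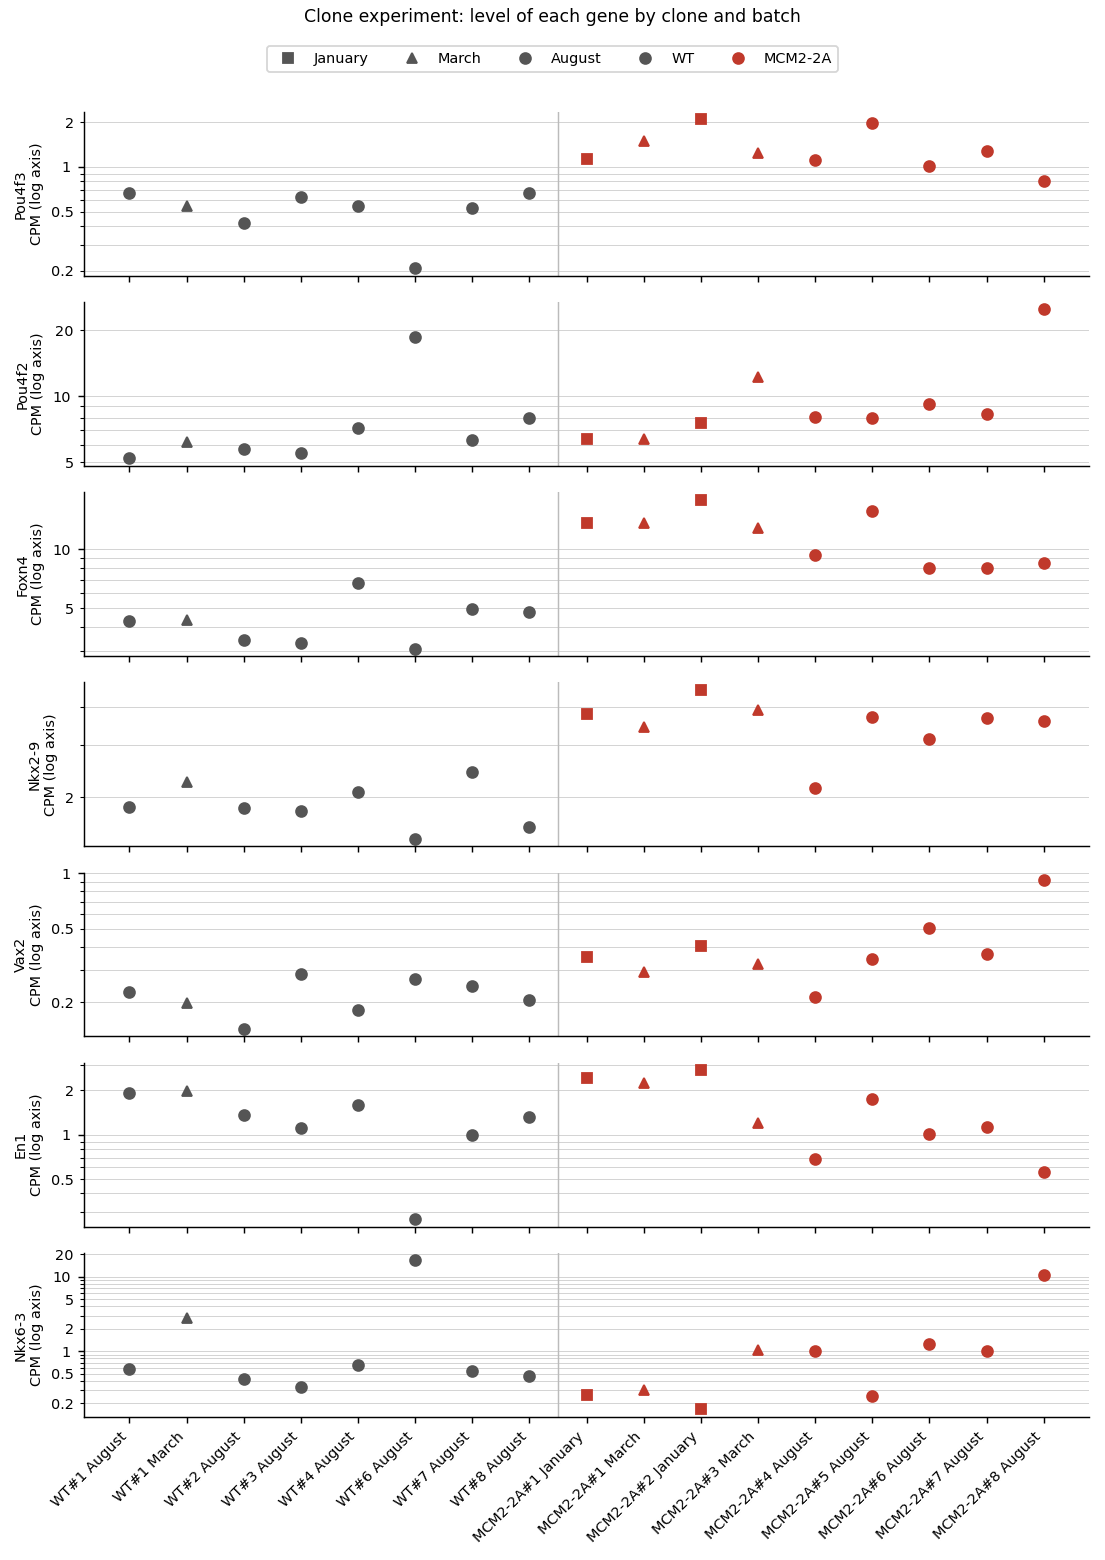
Level of each gene in CPM (log axis) for the 17 clone-and-batch values of the clone experiment, WT at the left and MCM2-2A at the right of the grey line, with the batch as the symbol. Foxn4 and Pou4f3 separate the genotypes, and WT#6 and MCM2-2A#8 stand far above the other clones for Nkx6-3.

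The spread among clones of a genotype was described in the August libraries, where each clone had 2, with no p-value because the genes were chosen with these clone values known. Among WT clones Nkx6-3, Pou4f2, Foxn4 and En1 were called by an edgeR F test, where 33.3% of all genes were. Among MCM2-2A clones the same 4 were called, where 17.4% of all genes were. Pou4f3, Nkx2-9 and Vax2 were not called in either genotype. Foxn4 was thus called among the clones of each genotype and did not overlap between the genotypes. Its WT values spanned 2.17-fold and its MCM2-2A values 2.25-fold.

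The extreme clones for Nkx6-3 were WT#6 at 16.5 CPM, with 566 and 545 counts in its 2 libraries, and MCM2-2A#8 at 10.45 CPM, with 379 and 234 counts. All other WT values lay at or below 2.74 CPM and all other MCM2-2A values at or below 1.26 CPM. WT#6 had the highest Pou4f2 of the WT clones (18.7 CPM) and MCM2-2A#8 the highest of the MCM2-2A clones (24.9 CPM). The same clones had the lowest En1 of their genotypes, 0.267 CPM in WT#6 and 0.563 CPM in MCM2-2A#8. Nkx6-3 also differed between batches of the same clone, since WT#1 had 2.74 CPM in March and 0.569 CPM in August. Summed levels of 6 fibroblast markers were 3.99 CPM in WT#6 and 9.17 CPM in MCM2-2A#8, within a range of 3.99 to 85.5 CPM over all clones. Low sums were not particular to them. WT#8 (5.76), WT#7 (6.22), WT#3 (6.28), MCM2-2A#7 (6.97), MCM2-2A#4 (7.08) and MCM2-2A#3 (7.36) were low too, and the remaining values were 10.2 to 85.5 CPM. Summed levels of 10 neural markers were 191 CPM in WT#6 and 194 CPM in MCM2-2A#8, the lowest of each genotype. The other WT values were 209.8 to 311.2 CPM and the other MCM2-2A values 202.4 to 301.8 CPM. Summed levels of 8 primitive endoderm markers were the highest of each genotype, at 240.5 CPM in WT#6 against 119.6 to 165.6 CPM in the other WT values and at 362.3 CPM in MCM2-2A#8 against 195.0 to 216.4 CPM in the other MCM2-2A values. The part of these differences in the levels of Nkx6-3 was not tested. Genes of chromosome 8, which holds both Nkx6-3 and Pou4f2, had a median log2 ratio of 0.051 in WT#6 and 0.044 in MCM2-2A#8 over 568 genes, the highest medians of the 17 values, whose range was −0.1 to 0.051. MCM2-2A#3 had 0.036 there. WT#6 also had the highest median for chromosomes 5 (0.057), 6 (0.046), 12 (0.034) and 18 (0.08), so its high value was not particular to chromosome 8.

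The POLE4 experiment asked what follows in a line where parental histones are biased the opposite way. The rule that chose the genes names no POLE4 difference, but the POLE4 values were among the results known at the time, so the p-values given here are not independent evidence. Nkx2-9, Pou4f2 and Pou4f3 rose and En1 fell in the mean of the 3 knockout clones, whereas Foxn4 and Nkx6-3 did not pass the test. Of the 6 genes tested 4 were thus called, where 5.74% of 16864 genes were called, 2.21% higher and 3.53% lower. Vax2 was not tested because it had only 3 to 9 counts per library. The single clones differed, and their values are given first.

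Nkx2-9 was at 1.81, 1.97 and 1.93 CPM in the WT#1 libraries. It was at 3.88, 5.84 and 4.56 CPM in POLE4-KO#1, 3.58, 4.19 and 3.52 CPM in POLE4-KO#2 and 4.78, 4.47 and 3.78 CPM in POLE4-KO#3. All 9 knockout libraries were above all 3 of WT#1, as was so for 3.33% of genes. The mean log2 fold change was 1.16 ± 0.155 (SE, adjusted p = 7.1e-05), and each clone passed alone, with 1.32 (adjusted p = 4.4e-05), 0.98 (0.00085) and 1.18 (0.00065). Nkx2-9 was the 1 gene of those tested for which the 3 knockout clones did not differ among themselves (edgeR F test, adjusted p = 0.23), where 31.2% of all genes did.

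Pou4f3 was at 0.686, 0.569 and 0.434 CPM in WT#1, at 0.647, 0.619 and 0.696 CPM in POLE4-KO#1, at 1.35, 1.57 and 1.26 CPM in POLE4-KO#2 and at 1.88, 1.64 and 1.33 CPM in POLE4-KO#3. POLE4-KO#1 overlapped WT#1, and the other clones lay above it. The log2 fold change was 1.30 ± 0.262 in POLE4-KO#2 (adjusted p = 0.0015) and 1.496 ± 0.26 in POLE4-KO#3 (0.0016), and 0.22 ± 0.292 in POLE4-KO#1 (0.65). The clones differed from each other (adjusted p = 0.0017). The mean of 1.00 ± 0.23 (adjusted p = 0.0053) was not robust to single libraries: leaving out WT#1 library 1, 2 or 3, POLE4-KO#1 library 3 or POLE4-KO#3 library 1 or 2 moved the adjusted p to 0.011, 0.027, 0.039, 0.011, 0.011 and 0.01, and with DESeq2 it was 0.013. The POLE4-KO#3 call was lost without WT#1 library 3, at 1.35 (adjusted p = 0.011).

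Pou4f2 was at 5.34, 4.86 and 3.47 CPM in WT#1, at 10.6, 11.8 and 9.78 CPM in POLE4-KO#1, at 6.77, 6.73 and 7.57 CPM in POLE4-KO#2 and at 4.96, 6.21 and 6.19 CPM in POLE4-KO#3. The first clone was highest and the last overlapped WT#1. The log2 fold change was 1.23 ± 0.152 in POLE4-KO#1 (adjusted p = 1.7e-05), 0.62 ± 0.155 in POLE4-KO#2 (0.0068) and 0.35 ± 0.158 in POLE4-KO#3 (0.16), and the clones differed (0.00045). The mean was 0.73 ± 0.131 (adjusted p = 0.00088), which fell under the fold limit without WT#1 library 3 (0.57, adjusted p = 0.0084). For POLE4-KO#2 the call ended in 6 of 12 fits that left out a library, with log2 fold changes of 0.46 (without WT#1 library 3) to 0.67 (without WT#1 library 2) and adjusted p values up to 0.034. The others were each of the 3 POLE4-KO#2 libraries and POLE4-KO#1 library 1.

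En1 was at 3.72, 2.24 and 4.48 CPM in WT#1, at 0.647, 0.221 and 0.657 CPM in POLE4-KO#1, at 2.42, 1.95 and 2.18 CPM in POLE4-KO#2 and at 2.60, 2.42 and 1.74 CPM in POLE4-KO#3. POLE4-KO#1 stood below all other libraries. Its log2 fold change was −2.75 ± 0.34 (adjusted p = 1.7e-05), against −0.66 ± 0.274 in POLE4-KO#2 (0.079) and −0.63 ± 0.276 in POLE4-KO#3 (0.14), and the clones differed (0.00027). The mean of −1.35 ± 0.228 (adjusted p = 0.00057) rested on a clone with a far lower level than the other two.

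Nkx6-3 moved in opposite directions in the knockout clones. It was at 1.96, 2.05 and 2.07 CPM in WT#1, at 18.8, 15.6 and 20.1 CPM in POLE4-KO#1, at 0.967, 0.719 and 0.740 CPM in POLE4-KO#2 and at 0.666, 0.730 and 0.593 CPM in POLE4-KO#3. No knockout library overlapped WT#1. Nkx6-3 rose by 3.16 ± 0.145 on the log2 scale in POLE4-KO#1 (adjusted p = 3.5e-10), fell by 1.33 ± 0.197 in POLE4-KO#2 (0.00011) and fell by 1.61 ± 0.206 in POLE4-KO#3 (0.00012). The clones differed from each other with an adjusted p of 4.5e-12, and the mean log2 fold change of 0.07 ± 0.155 (0.79) describes none of them.

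Foxn4 was at 5.81 ± 0.834 CPM in WT#1, 4.36 ± 0.601 in POLE4-KO#1, 4.72 ± 1.07 in POLE4-KO#2 and 7.39 ± 0.453 in POLE4-KO#3 (SD, n = 3). No clone passed the test against WT#1, with log2 fold changes of −0.42 (adjusted p = 0.078), −0.31 (0.18) and 0.34 (0.19). The mean was −0.13 with a 95% interval of −0.4 to 0.137 (adjusted p = 0.53). The knockout clones differed among themselves (adjusted p = 0.0028), which was lost without POLE4-KO#3 library 1 (0.015) or library 2 (0.012). Whether the difference of Foxn4 between MCM2-2A#2 and WT#1 was unlike that between POLE4-KO and WT#1 was not tested, as the tables were made and scaled separately.

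**Figure D3:**
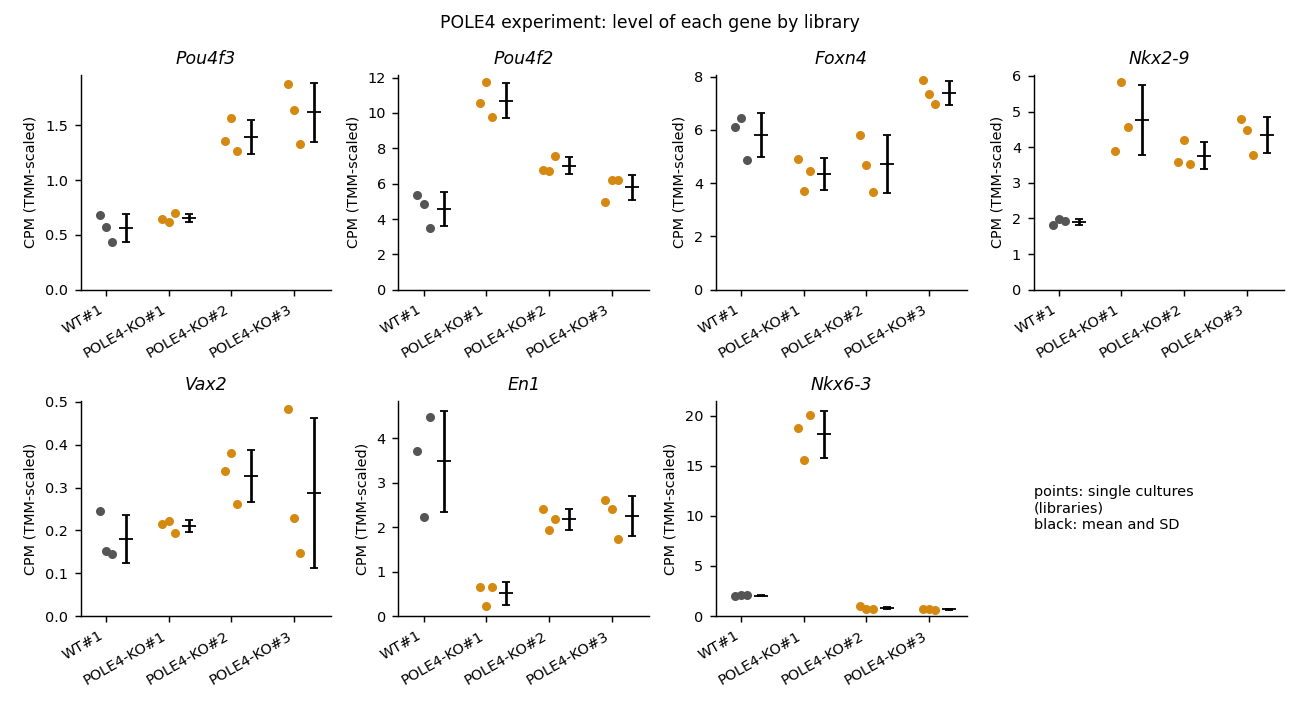
Level of each gene in CPM (vertical axis, from 0) in the 3 libraries each of WT#1 and the 3 POLE4-KO clones, with points for libraries and the mean and SD in black. Nkx2-9 is above WT#1 in all 9 knockout libraries, and POLE4-KO#1 is alone in its high Nkx6-3 and low En1.

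By clone, 4 of 6 genes were called in POLE4-KO#1 (11.5% of all genes), 4 of 6 in POLE4-KO#2 (11.3%) and 3 of 6 in POLE4-KO#3 (2.98%). POLE4-KO#1 shared the features of WT#6 and MCM2-2A#8 in the clone experiment, namely high Nkx6-3, the highest Pou4f2 and the lowest En1 of its table. Its 6 fibroblast markers summed to 5.07 to 5.41 CPM against 78.6 to 79.8 CPM in WT#1, with all 4 that were tested lower, and its 10 neural markers to 232 to 249 CPM against 391.8 to 439 CPM. POLE4-KO#2, where Nkx6-3 was lower than in WT#1, had low sums as well, with 9.29 to 11.2 CPM of fibroblast markers (3 of 4 tested lower) and 247 to 259 CPM of neural markers. Primitive endoderm markers summed to 126 to 171 CPM in WT#1, 181 to 294 CPM in POLE4-KO#1, 237 to 299 CPM in POLE4-KO#2 and 202 to 213 CPM in POLE4-KO#3. The median log2 ratio of chromosome 8 genes was 0.013 to 0.028 in the 3 libraries of POLE4-KO#1 (549 genes). The part of the marker differences in the levels of the 3 genes was not tested.

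**Figure D4:**
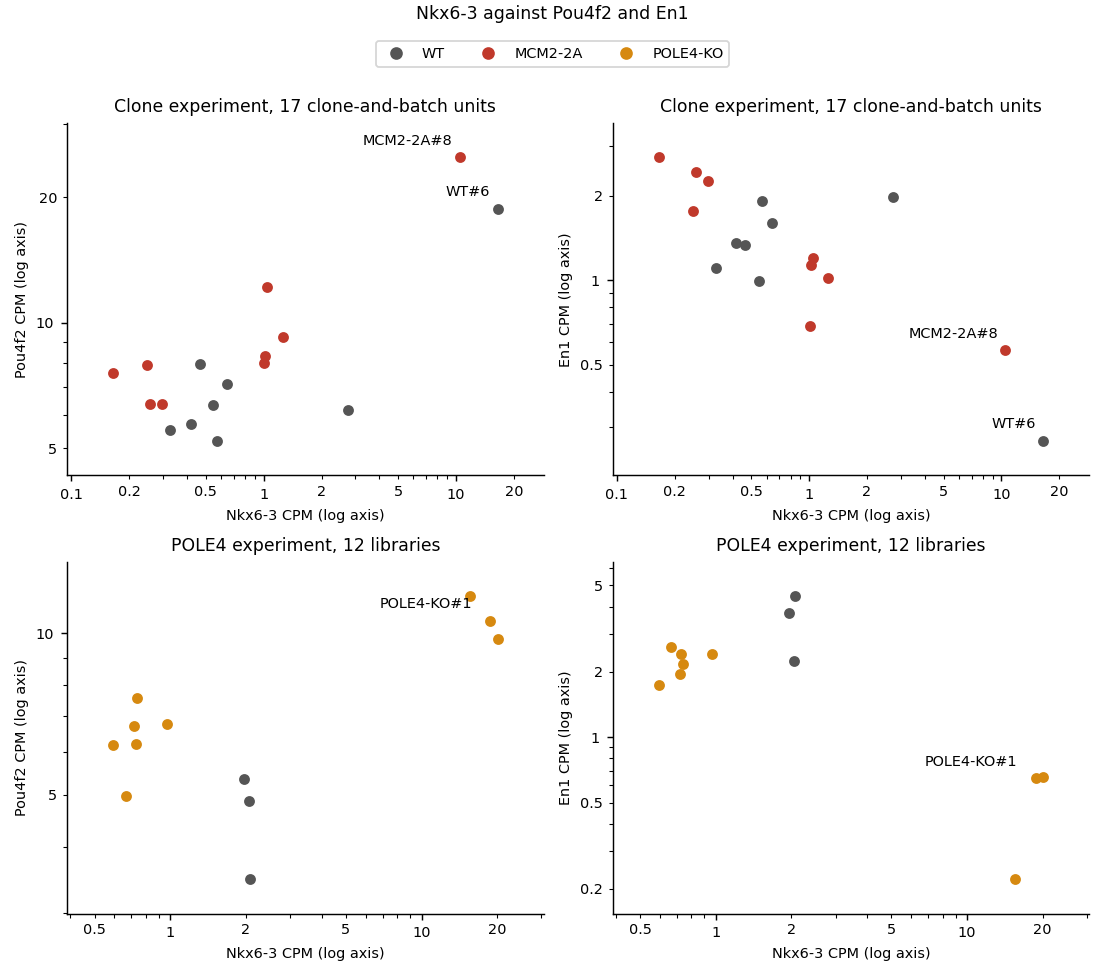
Nkx6-3 level against Pou4f2 (left) and En1 (right), all in CPM on log axes, for the 17 values of the clone experiment (top) and the 12 libraries of the POLE4 experiment (bottom). WT#6, MCM2-2A#8 and POLE4-KO#1 carry 10.45 to 20.1 CPM of Nkx6-3 together with high Pou4f2 and low En1, and the remaining points form no such extreme.

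Across the 17 clone-and-batch values, likeness between genes was measured as the root mean square difference of standardised log2 CPM after centring within batches, where 0 means the same pattern. Among the 7 genes Pou4f3 and Foxn4 were the most alike (0.48 SD), followed by Foxn4 and Nkx2-9 (0.56 SD), Pou4f2 and Nkx6-3 (0.601 SD) and Pou4f3 and Nkx2-9 (0.634 SD). The least alike were En1 and Nkx6-3 (1.85 SD) and Pou4f2 and En1 (1.83 SD). Vax2 was at 0.723 SD from Nkx2-9 and 0.775 SD from Pou4f2. The points share libraries and clones, and no test was made.

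Over all genes, the patterns closest to Foxn4 were those of Hpcal4 (0.251 SD) and Atp9a (0.27 SD), and those closest to Pou4f3 were Sp110 (0.282 SD) and Tex15 (0.33 SD). Sirt1 (0.171 SD) and Heatr3 (0.273 SD) were closest to Pou4f2, which was the best match of any of the 7. Camta1 (0.311 SD) and Gm15816 (0.328 SD) were closest to Nkx6-3, and Bik (0.279 SD) and Tmx1 (0.281 SD) to En1. Matches were looser for Nkx2-9, with Gm13648 (0.382 SD) and Plb1 (0.398 SD), and for Vax2, with Gm26660 (0.463 SD) and Tmx2 (0.467 SD). In POLE4-KO#1, Camta1 also rose, by 1.05 ± 0.0789 on the log2 scale (adjusted p = 7.1e-08), and Sirt1 did not pass with 0.30 ± 0.0884 (0.018).

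Gm15816 is an antisense transcript annotated 3.68 kb from Nkx6-3. It had 47 counts in WT#6 (0.6975 CPM) and 27 in MCM2-2A#8 (0.4604 CPM). Any other clone and batch had at most 23 counts and at most 0.147 CPM. In the POLE4 experiment it had 0, 4 and 1 counts in WT#1 and 15, 17 and 12 counts in POLE4-KO#1. Its log2 fold change in POLE4-KO#1 was 3.08 ± 0.714. It passed the low-count filter only through POLE4-KO#1, where it was high, so its call there adds no support. Whether the counting kept strands apart is not stated, so part of these counts could belong to overlapping reads of other transcripts.

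Genes within 100 kb of the 7 were compared to see whether the differences extended to neighbours. In MCM2-2A#2 against WT#1 none of 16 neighbours tested was called by edgeR, where 2.76% of all genes were, with 3 tested near Foxn4, 3 near Pou4f2, 3 near Nkx6-3, 4 near Vax2, 2 near Pou4f3, 1 near Nkx2-9 and 0 near En1. Of 17 neighbours tested in the POLE4 experiment, 3 were called in POLE4-KO#1 (11.5% of all genes), 1 in POLE4-KO#2 (11.3%) and 0 in POLE4-KO#3 (2.98%), counts near the background. They were Gm15816 and, at 0.913 kb from Nkx2-9, Gm38103 in POLE4-KO#1 (1.38 ± 0.356, adjusted p = 0.0085). Kctd10 at 89.8 kb from Foxn4 in POLE4-KO#1 (−0.59 ± 0.0876, 9.7e-05) and Vax2os in POLE4-KO#2 (1.27 ± 0.272, 0.0023) were the others. Gm15816 could be tested only through its counts in POLE4-KO#1. Over each member's chromosome the median log2 ratio of expressed genes stayed between −0.14 and 0.13 in every clone and library.

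Relatives of the 7 genes were read from a list of 18 POU, FOXN, NKX, VAX and EN family genes. In MCM2-2A#2 against WT#1, 11 were expressed highly enough to be tested, where 2.76% of all genes were called. En2, a paralogue of En1, was the 1 called, with a log2 fold change of 0.58 ± 0.0701. The list median was −0.02. In the clone experiment none of 15 tested was called by edgeR, with 4 at an unadjusted p below 0.05. With 0.679% of all genes called there, this count is near the background. In the mean of the POLE4-KO clones Pou4f1 rose, with 0.69 ± 0.136 (adjusted p = 0.0019), and Pou3f1, a POU factor of early neural cells, fell by 0.68 ± 0.0807 (2.2e-05), out of 10 tested. Of all genes 5.74% were called there.

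The single knockout clones again differed. Of 10 family genes tested, 5 were called in POLE4-KO#1, 4 in POLE4-KO#2 and 1 in POLE4-KO#3. The shares of all genes called were 11.5%, 11.3% and 2.98%. POLE4-KO#1 had Pou4f1 higher by 1.22 (adjusted p = 2.5e-05), Nkx6-2 higher by 0.72 (0.0025), and Pou3f1 (−1.42, 6.7e-08), En2 (−1.04, 0.00011) and Nkx2-5 (−2.24, 0.0062) lower. In POLE4-KO#2, Nkx2-2 (3.56, 0.001), Pou3f3 (1.83, 0.0048) and Pou4f1 (0.75, 0.0024) rose and Nkx6-2 fell by 0.93 (0.00081). In POLE4-KO#3 only Nkx6-2 of the list was called, at −0.74 (0.0098). Nkx6-2, a paralogue of Nkx6-3, was thus higher in POLE4-KO#1 and lower in POLE4-KO#2 and POLE4-KO#3.

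Partners of the 7 genes in their neural circuits made up a list of 38. In MCM2-2A#2 against WT#1, 17 were tested, where 2.76% of all genes were called. The Sonic hedgehog receptor gene Ptch1 (−1.39 ± 0.122) and the pathway's effector Gli1 (−0.71 ± 0.0883) were lower and none was higher. Nkx2-9 is itself a target of this pathway in the neural tube. Against MCM2-2A#2, Ptch1 was higher in MCM2-R#2 by 0.69 ± 0.122, a smaller change than the −1.39 of MCM2-2A#2 against WT#1. In the clone experiment Ptch1 was again lower (−0.92 ± 0.13). None of the 4 tested partners of Foxn4 was called in MCM2-2A#2, with a median log2 fold change of 0.06.

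In the POLE4-KO mean, 14 partners were tested, where 5.74% of all genes were called. The shares of all genes called were 11.5% in POLE4-KO#1, 11.3% in POLE4-KO#2 and 2.98% in POLE4-KO#3. Fgf8, the signal of the midbrain-hindbrain boundary, fell by 2.80 ± 0.261 (adjusted p = 2.1e-06) and Otx2, a forebrain and midbrain factor, by 0.69 ± 0.0684 (3.5e-06). Gata3, which acts below Foxn4 in spinal interneurons, rose by 1.00 ± 0.145 (0.00015), and Neurod1 rose by 0.60 ± 0.136 (0.0051). Gata3 was higher in POLE4-KO#2 (2.17, 1.2e-07) and POLE4-KO#3 (1.502, 2.7e-05), and Gata2 in POLE4-KO#3 (1.03, 0.0037), where Foxn4 itself did not pass the test. Fgf8 was lower in all 3 clones, with −3.93 (2.5e-06), −2.76 (2.8e-05) and −1.71 (0.0026). Gli1 was higher in POLE4-KO#1 (0.62, 4.4e-05) and lower in POLE4-KO#3 (−0.61, 0.00031), and in POLE4-KO#1 Gbx2 was higher (0.97, 1.5e-05) while Pax8 (−1.08, 0.0027) and Otx2 (−1.15, 9.5e-08) were lower.

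None of 16 genes of the Polycomb machinery was called in MCM2-2A#2 against WT#1 (4 at an unadjusted p below 0.05) or in the clone experiment (2) by edgeR. With 2.76% and 0.679% of all genes called there, a count of 0 among 16 is near the background. Phf19, an accessory subunit of Polycomb repressive complex 2, rose by 0.72 ± 0.115 in the POLE4-KO mean (adjusted p = 0.00034), by 1.06 in POLE4-KO#1 (2.1e-05) and by 0.65 in POLE4-KO#2 (0.0019). Of all genes 5.74%, 11.5% and 11.3% were called in these comparisons, in that order.

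Markers of other cell types were read beside these results. Summed levels of 8 primitive endoderm markers were 147 to 175 CPM in WT#1, 274 to 352 in MCM2-2A#2 and 128 to 184 in MCM2-R#2, with 7 of the 8, among them Gata6 (log2 fold change 2.29) and Sox17 (2.18), higher in MCM2-2A#2. They were 120 to 240 CPM in WT clones and 195 to 362 CPM in MCM2-2A clones, with Gata6, Sox17 and Pdgfra called higher. Of all genes 1.80% were called higher in MCM2-2A#2 and 0.628% in the clone experiment. Summed levels of 10 neural markers were 364 to 408 CPM in WT#1, 297 to 325 in MCM2-2A#2 and 373 to 410 in MCM2-R#2. Map2 and Syt1 were lower in MCM2-2A#2. Stmn2 ran from 197 to 227 CPM in WT#1 and from 140 to 166 in MCM2-2A#2. Tubb3 ran from 72.6 to 90.5 CPM in WT#1 and from 82.6 to 99.6 in MCM2-2A#2, so not every marker followed the sum. In the clone experiment the neural sums overlapped, at 191 to 311 CPM in WT and 194 to 302 in MCM2-2A. In the rescue experiment, the neural factors higher in MCM2-2A#2 stood beside a lower sum of general neural markers and a higher sum of primitive endoderm markers. The part of these cells in the levels of the 7 genes was not tested.

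**Figure D5:**
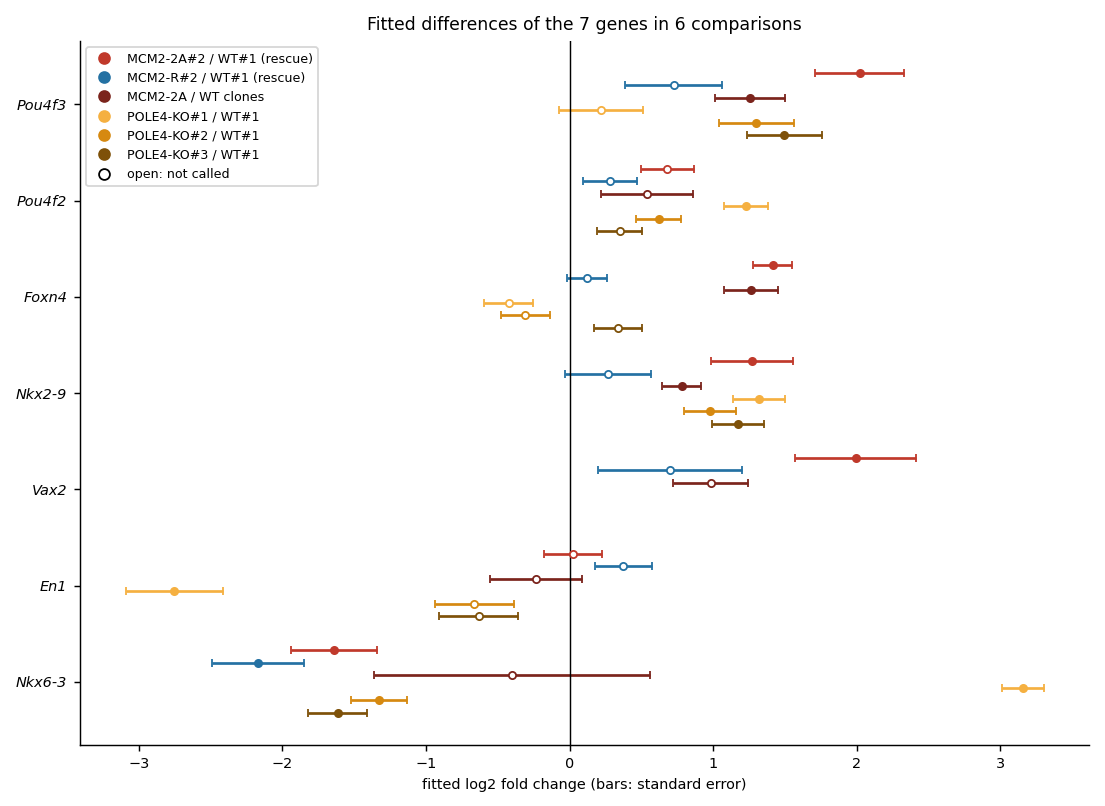
Fitted log2 fold change (horizontal axis, bars are the standard error) of each gene in 6 comparisons, with filled points for calls and open points for values that did not pass; Vax2 was not tested in the POLE4 experiment. Nkx2-9 is to the right of 0 in all comparisons, Foxn4 to the right by over 1 in both MCM2-2A comparisons alone, and Nkx6-3 spans from −2.17 in MCM2-R#2 to 3.16 in POLE4-KO#1.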

How the data were processed

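The authors deposited 3 tables of raw counts per gene and repeat subfamily (55335 and 1146 rows in each). Per the labels, Trimmomatic 0.39 did the trimming and STAR 2.7.1a the mapping to mm10, and featureCounts is named for the POLE4 and clone experiments. The strand setting of the counting is not given in the sources used here. Of 68 columns 65 were used, and 3 columns carried a line number of no sample. The MCM2-R#2 columns were tied to their group through their titles and the study's sample list. Symbols and positions come from GENCODE annotation of GRCm38. Runs of a culture were summed, and the libraries of a clone in a batch were summed.

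Genes and repeats passing filterByExpr (minimum count 10, minimum total 15) were fitted together with edgeR 4.0.16 (glmQLFit, glmQLFTest, R 4.3.3), with TMM factors from genes alone, batch as a term in the clone experiment, and Benjamini-Hochberg adjustment over genes. Calls needed a log2 fold change beyond 0.58 in either direction together with an adjusted p under 0.01, and tests among clones the p alone. SE is the size of the log2 value over the root of its F statistic. CPM are TMM-scaled. All 7 genes passed the filter in the rescue and clone fits and 6 of 7 in the POLE4 fit. The test was tested on simulated data.

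The genes and all lists were chosen with earlier results of these data known. Named genes are the 7, called members of the family, partner and Polycomb lists, Mcm2 and Pole4, and the 2 genes most like each of the 7 in pattern; named neighbours, marker genes and single clones were chosen after their values were seen. The alternatives tried were DESeq2 1.42.0, RLE size factors, no filter, an adjusted p below 0.05 with no fold limit, a replicate block, the sequencing run, single batches and libraries, and leaving out each culture, library or clone. Leaving out WT#6 and MCM2-2A#8 together, and fits of the knockout clones alone with and without a block on the library number, were chosen after seeing the data. The columns of the knockout clones carry the numbers 1 to 3, and residuals of same-numbered libraries had a correlation over 0.1 in 9 of 9 pairs and in 0 of 18 other pairs, so these numbers were taken to pair the libraries. The result of 1 gene of the partner list is not reported here.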

Additional observations from a re-analysis of the deposited data

Results flagged for a closer look

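Of 35 groups of 4 to 10 values for the 7 genes, 6 held a value apart from its group by Dixon's test at the 95% level, which by chance marks about 5% of groups. Nkx6-3 was high in WT#6 (16.49 CPM) among the August WT clones and in MCM2-2A#8 (10.45 CPM) among the August MCM2-2A clones. Pou4f2 was high in the same clones, at 18.74 CPM in WT#6 and 24.93 CPM in MCM2-2A#8. Foxn4 was high in MCM2-2A#5, at 15.74 CPM among the August MCM2-2A clones. Nkx2-9 was low in culture 3 of MCM2-2A#2, at 4.574 CPM, in the rescue experiment.

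Levels differed among the 3 POLE4-KO clones for 5 of the 6 genes tested (edgeR F test, adjusted p), where 31.2% of 16864 genes did. The values were 4.5e-12 for Nkx6-3, 0.00027 for En1, 0.00045 for Pou4f2, 0.0017 for Pou4f3 and 0.0028 for Foxn4. Nkx6-3 was higher than WT#1 in POLE4-KO#1 and lower in POLE4-KO#2 and POLE4-KO#3, in 9 of 9 libraries.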

How the results depend on the processing

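Over 1233 recomputed values of single genes under 51 alternatives, 1121 kept their direction and their side of the threshold, 68 lost and 25 gained a call, and 19 changed sign. RLE size factors changed none of 79. Of the 7 genes, 5 were called in MCM2-2A#2 against WT#1, 3 with the first run only, 4 with the run as a covariate, and 6 with DESeq2, with no filter or at an adjusted p below 0.05 with no fold limit, where Pou4f2 was gained. In MCM2-R#2 against MCM2-2A#2, 1 was called, 3 with DESeq2, with no filter, or at an adjusted p below 0.05 with no fold limit, and 2 with the run as a covariate, where MCM2-R#2 against WT#1 lost its call (0, from 1). In the clone experiment 3 were called, 1 in March alone with single libraries as units, and 2 with no filter, where Pou4f3 was lost. With single libraries as units, with or without a block on their number, 4 were called. At an adjusted p below 0.05 with no fold limit 4 were also called, and Vax2 was gained in each. In August without WT#1 0 were called, 3 with DESeq2, 3 with single libraries as units and 1 at an adjusted p below 0.05 with no fold limit. Fits on single libraries take libraries of a clone as independent. Leaving out single cultures, libraries or clones gave 2 to 5 calls in MCM2-2A#2 against WT#1, 0 to 1 in MCM2-R#2 against WT#1, 1 to 2 in MCM2-R#2 against MCM2-2A#2, 2 to 4 in the POLE4-KO mean, 4 in POLE4-KO#1, 3 to 4 in POLE4-KO#2, 2 to 3 in POLE4-KO#3, 4 to 5 among the POLE4-KO clones, 0 to 3 in the clone experiment and 0 in August. The cause of these changes was not tested.

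Nkx2-9 and Vax2 lost their calls in MCM2-2A#2 in 8 of 12 such fits each (log2 fold changes 1.04 to 1.53 and 1.70 to 2.23). Both kept it without WT#1 culture 2 or MCM2-R#2 culture 3 or 4, Nkx2-9 also without MCM2-2A#2 culture 3 and Vax2 without MCM2-R#2 culture 2. In the clone experiment, with 1 of 16 fits leaving out both WT#6 and MCM2-2A#8 (chosen after seeing the data), Pou4f3 lost its call in 12 (1.08 to 1.35), keeping it without WT#6, MCM2-2A#2, MCM2-2A#8 or both extreme clones. There Nkx2-9 lost it in 9 (0.71 to 0.87), keeping it without MCM2-2A#4, WT#8, MCM2-2A#1, WT#7, WT#6, MCM2-2A#2 or WT#4, and Foxn4 in 1, without WT#1 (1.18). All of these kept their sign. Signs changed for values that were not called: En1 in MCM2-2A#2 was −0.074 with the first run only and −0.077 to 0.14 without single cultures, Foxn4 in MCM2-R#2 against WT#1 was −0.041 to 0.22, En1 in the clones was 0.24 with no batch term, and Nkx6-3 in the clones was 1.64 with DESeq2 and −1.73 to 1.54 without single clones. In August without WT#1, leaving out a clone gave −0.036 to 0.83 for Pou4f2, −0.39 to 0.040 for En1 and −1.81 to 2.52 for Nkx6-3, which was 0.0083 with WT#1 included.

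A replicate block in the rescue fit gave 3 called genes in MCM2-R#2 against MCM2-2A#2 (Pou4f3, Foxn4 and Nkx2-9) instead of 1. In MCM2-2A#2 against WT#1 it gained Pou4f2 (0.68) and lost Vax2 (2.02), with 5 called as before. The culture numbers share no stated origin, and residuals of same-numbered cultures exceeded a correlation of 0.1 in 5 of 12 pairs against 6 of 36 other pairs, so the block is no evidence of pairing. For the comparisons of POLE4-KO with WT#1 no paired analysis was possible because the WT#1 columns carry other numbers than the knockout columns. Among the knockout clones alone, a block on the library number, chosen after seeing the data, called the same 5 of 6 genes as the fit without it and changed no call. Vax2, with 2 to 33 counts per culture or library outside the clone experiment, is limited by depth.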
